A study of Mus musculus with 6 samples.

Results

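The genes followed here encode proteins linked to a scaffold at the plasma membrane. These genes are AHNAK and AHNAK2, annexins A1 to A5 (ANXA1 to ANXA5), and the S100 genes S100A6, S100A10 and S100A11. They are 10 of 20499 genes in the count table, found by symbol, and all 10 had enough reads to be tested. They were put together with the difference between shRNF11 and shControl cells in view, so that difference is given for them as a description, with no test. RNA sequencing covered 6 libraries, 3 per group, from cells labelled AML12, an immortalized hepatic line recorded as mouse. A lentivirus served to knock down RNF11, a ubiquitin ligase gene, in the shRNF11 group (genotype label RNF11 knockdown), and the shControl group (genotype label WT) is the matching control. Cells of both groups had passed through 6 h at 1% oxygen without glucose and serum and then reoxygenation in complete medium with 10% serum, insulin-transferrin-selenium, antibiotics and 40 ng/mL dexamethasone, a synthetic glucocorticoid. The sources used here do not give the number of hairpins, the time from reoxygenation to harvest, or whether a clone or a pool was used. No library without hypoxia was analysed here.

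Annexins bind acidic membrane phospholipids when calcium is present, through a conserved core, while their variable N-terminal ends bind partner proteins. S100 proteins are small EF-hand dimers that dock on such ends. S100A10 is the exception that no longer binds calcium and stays in the open form, and a dimer of it joins a pair of annexin A2 molecules into a tetramer. AHNAK, a giant repeat protein of the submembranous cortex, attaches to that tetramer through its C-terminal end. The complex is known from plasma membrane repair, from membrane-to-actin contacts in epithelial cells and, at the outer surface, from the binding of plasminogen. The table's own Gene Ontology terms show what the members share. Calcium-dependent phospholipid binding was assigned to 5 members, the annexins, and to 42 (0.205%) of all listed genes. Positive regulation of plasma membrane repair was assigned to AHNAK, ANXA2 and S100A10 and to 4 listed genes in all. No human genome, promoter or protein sequence was at hand, so no sequence is shown.

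Library depth ranged from 37485850 to 39045440 reads. RNF11 was lower in every shRNF11 library, with 2050, 1926 and 1930 reads in shControl and 573, 565 and 599 in shRNF11 (log2 difference -1.73, edgeR adjusted p = 3.48e-28). The first principal component of log2 CPM (reads of a gene per 1000000 reads, scaled between libraries) separated the groups, and the second set shRNF11 replicate 1 (-15.0) apart from replicates 2 (3.45) and 3 (11.2). The table names human genes: 0 of its Entrez numbers are among the 49997 mouse RefSeq genes, and its KEGG terms are human for 6391 genes and mouse for 0. Of 15 hepatocyte markers 11 were listed, and 10 of these, among them APOA1, APOB and HNF4A, had at most 42 reads over all 6 libraries. The exception was CPS1, a urea cycle enzyme gene, with means of 1028 CPM in shControl and 1091 CPM in shRNF11. ALB, TTR, SERPINA1 and G6PC1 were not listed, so their levels are not known. The labelled cell type is thus not borne out by most of its listed markers, and the cells are called shControl and shRNF11 cells. The labels do not say that replicates came from separate cultures, so errors and p-values reflect variation among these libraries alone, possibly technical. In bulk RNA, fewer cells of a type and less RNA per cell cannot be told apart.

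AHNAK, S100A10 and ANXA2, the 3 parts of the complex, showed the highest log2 differences among the members, all with more RNA in shRNF11 cells, though AHNAK2 lay within an SE of ANXA2. ANXA1, S100A11 and ANXA3 were higher by less, ANXA4 and ANXA5 were near 0, and S100A6 was lower. At an adjusted p under 0.05 in the fit over all genes, 7 members were higher, 1 was lower and 2 did not pass. Of all 13489 tested genes 32.1% passed, 17.4% higher and 14.7% lower. In that fit 9 of the 10 members lay among the 20% of tested genes with the most reads, where 55.6% passed, 42.7% higher and 12.9% lower. The median log2 difference was 0.165 over the members, -0.00793 over all tested genes and 0.0644 over those 20%. Because the members were chosen on this contrast, nothing is read from these counts.

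**Figure D1:**
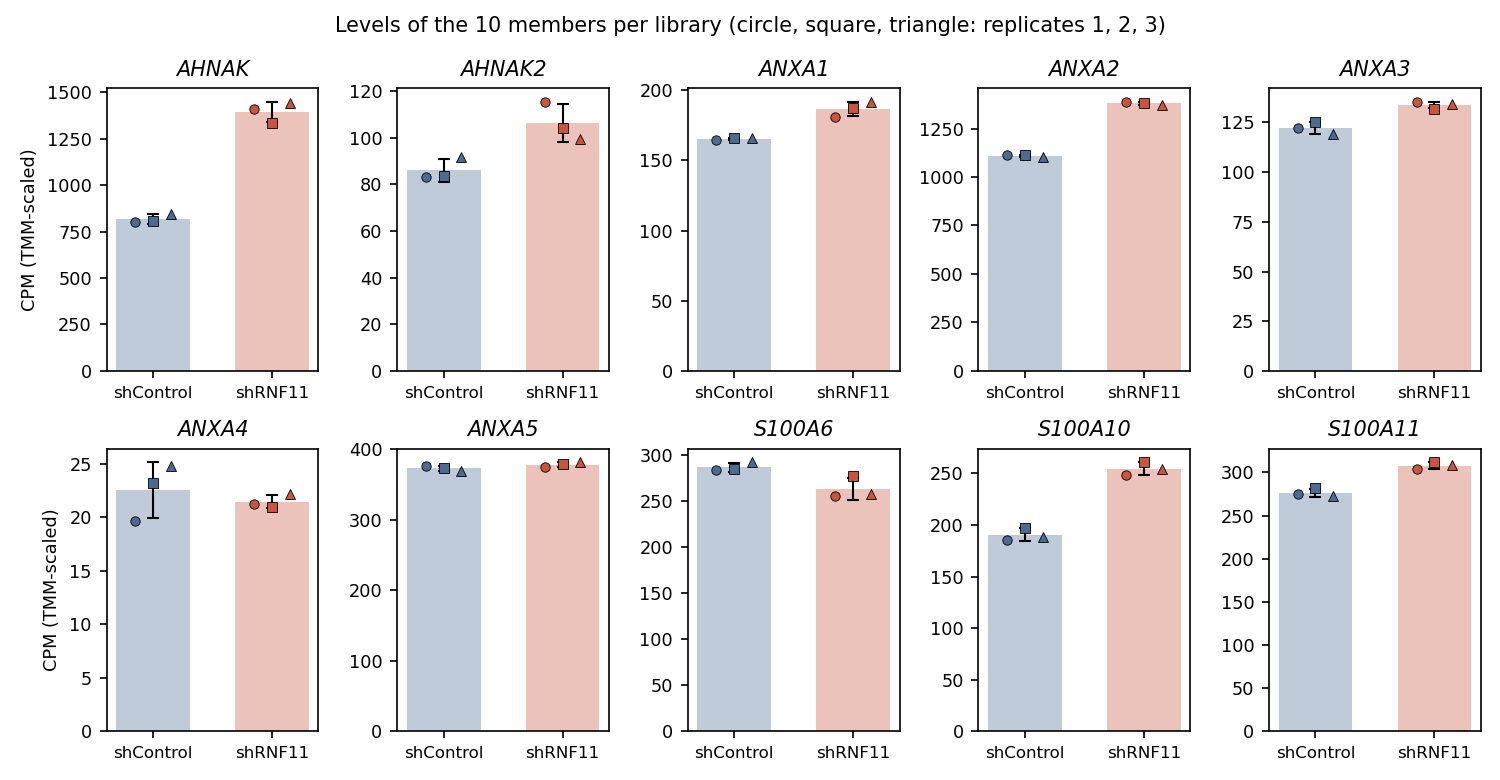
Level of each of the 10 members in CPM (vertical axes, each from 0) in shControl (blue) and shRNF11 (red) libraries. Bars are means, error bars SD (n = 3), and circles, squares and triangles replicates 1, 2 and 3. AHNAK went from 817 to 1394 CPM, while the groups overlapped for ANXA4 and ANXA5.

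AHNAK (Entrez 79026) had 30983, 30826 and 32784 reads in shControl and 52538, 50754 and 54554 in shRNF11. Every shRNF11 library lay far above every shControl library. Mean level was 817 ± 25.9 CPM in shControl and 1394 ± 54.1 CPM in shRNF11 (SD, n = 3 each), a 1.71-fold difference (log2 0.77, SE 0.0249). AHNAK made up 0.0816% to 0.0867% of all reads in shControl libraries and 0.130% to 0.141% in shRNF11 libraries. Of the reads of the 10 members together, it held 23.3% to 24.4% and 30.4% to 32.3%. The other 9 members together took 0.268% to 0.271% of reads in shControl and 0.295% to 0.298% in shRNF11. AHNAK thus carried the larger part of the added member reads. A long transcript such as that of AHNAK collects more reads, so this is a share of reads and not of transcripts.

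AHNAK2 (Entrez 113146), a large relative of AHNAK with a similar repeat build, had 3216, 3198 and 3548 reads in shControl and 4300, 3958 and 3760 in shRNF11. The groups did not overlap, but the highest shControl library and the lowest shRNF11 library were close. Mean level was 86.0 ± 4.86 CPM against 106.2 ± 8.31 CPM in shRNF11 (log2 0.30, SE 0.0450). Among the shRNF11 libraries replicate 3 was the highest for AHNAK and the lowest for AHNAK2. Reads of AHNAK per read of AHNAK2 in the same library were 9.24 to 9.64 in shControl and 12.2 to 14.5 in shRNF11.

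ANXA2 (Entrez 302), the annexin of the tetramer, had 43166, 42629 and 42699 reads in shControl and 51623, 52646 and 51896 in shRNF11. Replicates lay close together in both groups, with a coefficient of variation of 0.556% in shControl and 0.653% in shRNF11. Mean level was 1110 ± 6.17 CPM in shControl and 1379 ± 9.003 CPM in shRNF11 (log2 0.31, SE 0.0214). Human ANXA2 has processed pseudogenes, which were not analysed here, and reads shared with them may have been lost or misplaced in counting. ANXA2R, which encodes a proposed receptor of annexin A2, is no member and was lower, with 125, 120 and 110 reads against 78, 91 and 60 (log2 -0.60, SE 0.226, edgeR adjusted p = 0.0364). Its call was lost without shControl replicate 1 (adjusted p = 0.106), shControl replicate 2 (0.0870), shRNF11 replicate 1 (0.0558) or shRNF11 replicate 3 (0.162).

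S100A10 (Entrez 6281), the calcium-insensitive partner of ANXA2, had 7182, 7570 and 7305 reads in shControl and 9249, 9925 and 9624 in shRNF11. All shRNF11 libraries lay above all shControl libraries. Mean level was 190.5 ± 6.18 CPM against 254 ± 6.39 CPM in shRNF11 (log2 0.42, SE 0.0317). Reads of S100A10 per read of ANXA2 were 0.166, 0.178 and 0.171 in shControl and 0.179, 0.189 and 0.185 in shRNF11. These ratios nearly met between the groups, whereas reads of AHNAK per read of ANXA2 were 0.718 to 0.768 in shControl and 0.964 to 1.05 in shRNF11. The partner genes thus differed unequally between the groups, AHNAK by the most.

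ANXA1 (Entrez 301), a glucocorticoid-inducible annexin that restrains inflammation, had 6372, 6371 and 6414 reads in shControl and 6751, 7130 and 7255 in shRNF11. Its mean level was 165.5 ± 0.816 CPM in shControl and 186.7 ± 5.17 CPM in shRNF11 (log2 0.17, SE 0.0328). S100A11 (Entrez 6282), which binds the N-terminal end of annexin A1, had 10655, 10806 and 10549 reads in shControl and 11320, 11863 and 11686 in shRNF11. The means of S100A11 were 276.5 ± 4.81 CPM in shControl and 308 ± 4.08 CPM in shRNF11 (log2 0.16, SE 0.0286). Neither gene overlapped between the groups. Over the 6 libraries their centred log2 levels differed by a root mean square of 0.0236, the smallest among the 45 pairs of members. ANXA3 with S100A11 (0.0260), ANXA1 with ANXA3 (0.0413) and ANXA3 with ANXA5 (0.0597) followed, and S100A10 with ANXA2 ranked 5 at 0.0618. The group difference, on which the members were chosen, enters this measure, so it is a description. Reads of S100A11 per read of ANXA1 overlapped between the groups, at 1.64 to 1.70 in shControl and 1.61 to 1.68 in shRNF11.

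ANXA3 (Entrez 306), an annexin known as an inhibitor of phospholipase A2 in vitro, had 4732, 4803 and 4623 reads in shControl and 5039, 5016 and 5085 in shRNF11. Its mean was 122.3 ± 2.93 CPM in shControl and 133.7 ± 1.70 CPM in shRNF11 (log2 0.13, SE 0.0357). With libraries scaled by their totals alone its log2 difference was 0.06, and it was then the one member past the threshold that no longer passed.

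ANXA4 (Entrez 307), an annexin of secretory epithelia, was the least read member, with 761, 889 and 958 reads in shControl and 792, 797 and 839 in shRNF11. The shControl libraries spread on both sides of the shRNF11 libraries. The log2 difference was -0.07 (SE 0.0784), and leaving out 1 library at a time moved it from -0.16 to 0.0016. ANXA5 (Entrez 308), the annexin used as a probe for phosphatidylserine on dying cells, had 14582, 14302 and 14309 reads in shControl and 13945, 14407 and 14450 in shRNF11. At 373 ± 3.50 CPM and 378 ± 3.57 CPM its groups overlapped (log2 0.02, SE 0.0268), and with library totals alone the sign turned to -0.05. For both genes the log2 difference was smaller in size than its SE, which reflects variation among these libraries alone.

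S100A6 (Entrez 6277), or calcyclin, a calcium-binding dimer known from proliferating epithelia and fibroblasts, went the other way. It had 10988, 10898 and 11315 reads in shControl and 9533, 10549 and 9765 in shRNF11. Replicate 2 of shRNF11 came close to the shControl libraries without reaching them. Mean level was 286.8 ± 4.78 CPM against 263.6 ± 11.9 CPM in shRNF11 (log2 -0.12, SE 0.0306). The groups of 8 of the 10 members did not overlap, as for 42.8% of all tested genes.

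**Figure D2:**
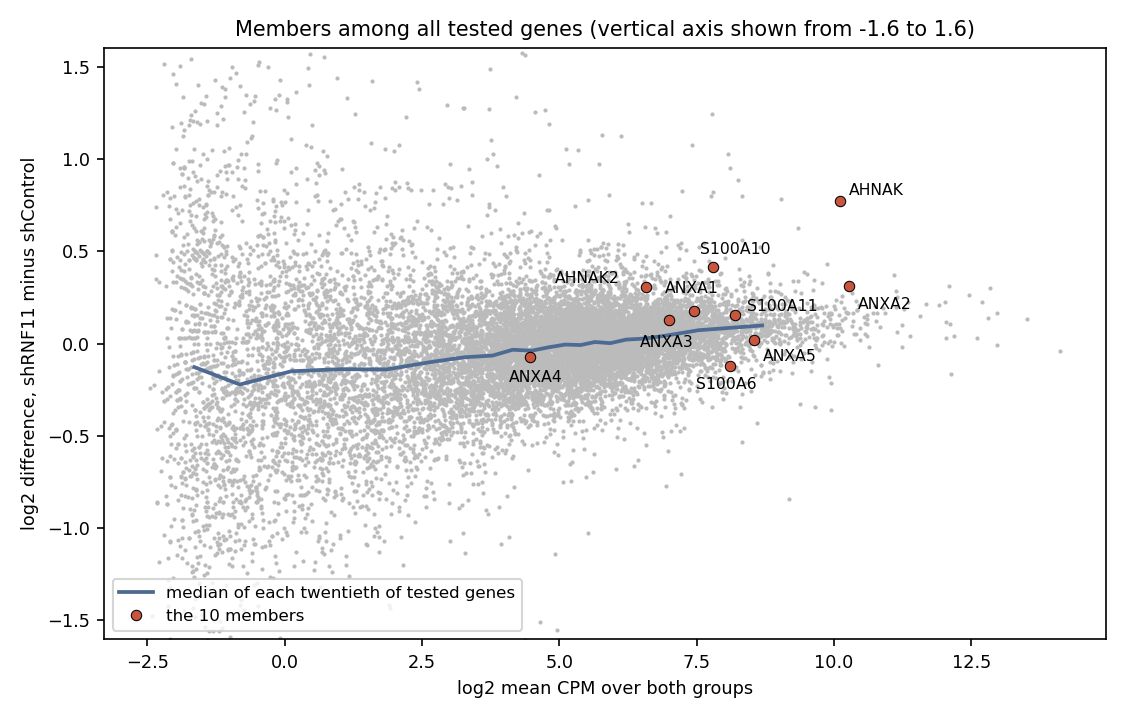
Log2 difference (shRNF11 minus shControl, vertical axis) against log2 mean CPM (horizontal axis) for 13489 tested genes (grey), with the 10 members in red. The blue line joins the medians of equal-sized bins of genes by level: AHNAK at 0.77 and S100A10 at 0.42 stand above it, and S100A6 at -0.12 below it.

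Levels of different members are not ranked against each other, because the table gives no transcript length and a long transcript such as that of AHNAK collects more reads. The genes whose pattern over the 6 libraries was nearest to AHNAK were found by the root mean square difference of log2 CPM centred on each gene's mean. They were TGFBI, a matrix protein gene (0.0402), NEXN, which encodes an actin-binding protein of cell-matrix contacts (0.0498), and PTGES, the inducible prostaglandin E synthase (0.0522). CIITA, the activator of MHC class II genes (0.0537), and the sulfate transporter gene SLC26A2 (0.0558) followed. CIITA had a mean of 1.42 CPM in shControl and 2.73 CPM in shRNF11, so its likeness rests on few reads. All 5 share the group difference that AHNAK was chosen for, with log2 differences from 0.78 (TGFBI) to 0.94 (CIITA), and the likeness is a description.

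The other annexins were examined as genes outside the chosen 10, though the lists too were made with earlier results of these data known. Of 8 on the list, 6 were tested. By edgeR 5 were higher in shRNF11 cells and 0 lower, 83.3% against 32.1% of all tested genes. Among the 20% of tested genes with the most reads, where ANXA6, ANXA7 and ANXA11 lay, 55.6% passed, 42.7% higher and 12.9% lower. DESeq2 also gave 5 and 0, and at an unadjusted p under 0.05 the counts were the same 5 and 0. The median log2 difference was 0.224. ANXA8, an annexin first linked to acute promyelocytic leukaemia, had 2136, 2110 and 2142 reads in shControl and 2990, 2970 and 2731 in shRNF11. It rose by 1.39-fold (log2 0.48, SE 0.0468, edgeR adjusted p = 7.52e-12), with no overlap. Its near-identical copy ANXA8L1 rose by 1.29-fold (log2 0.37, adjusted p = 1.64e-07), and reads of the pair may be split or exchanged, so they are not independent evidence.

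ANXA6, an annexin with a doubled core that binds endosomes and the cortex, rose from 104.5 ± 3.61 CPM to 123.4 ± 1.09 CPM (log2 0.24, SE 0.0375, edgeR adjusted p = 1.10e-06). ANXA11, which links RNA granules to lysosomes, rose by 1.13-fold (log2 0.17, adjusted p = 0.000505). ANXA7, an annexin of secretory granules, passed narrowly (log2 0.10, adjusted p = 0.0394). The call on ANXA7 was lost with library totals alone (0.532) and without shControl replicate 1 (0.0586), shControl replicate 2 (0.0510), shControl replicate 3 (0.205) or shRNF11 replicate 3 (0.178). ANXA10 had 66 reads in all and did not pass, and ANXA9 had 38 and was not tested. With ANXA7 aside, the 4 other higher annexins also passed with library totals alone.

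**Figure D3:**
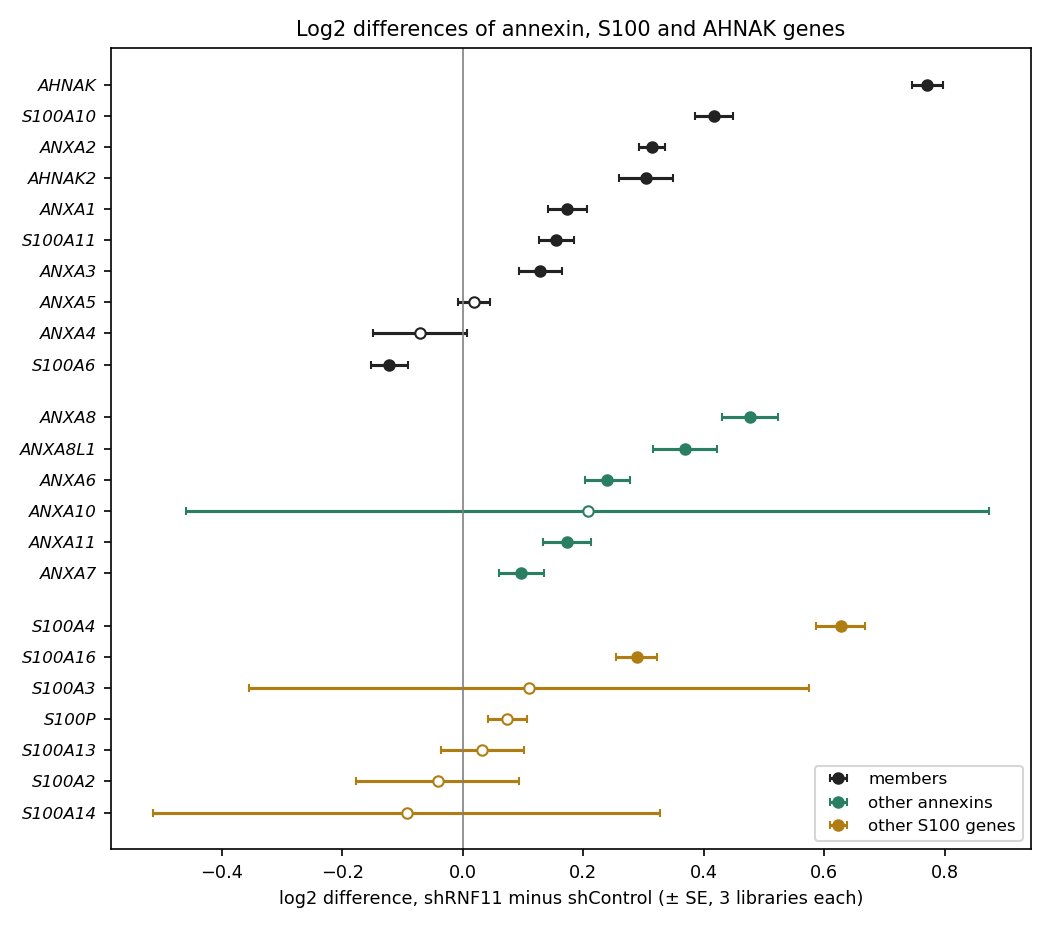
Log2 difference between shRNF11 and shControl (horizontal axis) with its SE (error bars, 3 libraries per group) for the 10 members (black), 6 other tested annexins (green) and 7 other tested S100 genes (ochre). Filled circles mark genes past an adjusted p of 0.05 in the fit over all genes. S100A4 at 0.63 and ANXA8 at 0.48 stand highest outside the members.

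Of 17 other S100 genes on the list 7 were tested, and 2 were higher, 0 lower and 5 did not pass by edgeR. That is 28.6%, near the 32.1% of all tested genes, with a median log2 difference of 0.0742. DESeq2 also called 0 lower, and at an unadjusted p under 0.05 the counts were 3 higher and 0 lower. S100A4, an S100 protein that binds non-muscle myosin, had 3330, 3252 and 3194 reads in shControl and 4962, 5173 and 4630 in shRNF11. It rose by 1.54-fold (log2 0.63, SE 0.0402, edgeR adjusted p = 2.92e-18), with every shRNF11 library above every shControl library. S100A16, a widely expressed member of the family, rose from 147.5 ± 3.65 CPM to 180.2 ± 4.40 CPM (log2 0.29, adjusted p = 1.17e-09). S100P, which binds ezrin, stood at 179.7 ± 1.33 CPM and 189.2 ± 4.83 CPM and did not pass (log2 0.07, adjusted p = 0.0731).

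S100A13, at 26.1 CPM in shControl and 26.7 CPM in shRNF11, and S100A2, at 6.81 and 6.61 CPM, did not pass. S100A8 and S100A9, the calprotectin pair of myeloid cells, had 2 and 8 reads in all, and S100B, known from glia, had 1. Against 32.1% of all tested genes, 33.3% of the tested gene neighbours of the S100 cluster passed, 2 of 9 higher and 1 lower. These were ILF2, a double-stranded RNA binding partner gene (log2 0.12, edgeR adjusted p = 0.000393), INTS3, an Integrator subunit gene (0.17, adjusted p = 0.000459), and NPR1, a natriuretic peptide receptor gene, which was lower (-0.30, adjusted p = 0.00623). The median of the 9 was 0.0197, and -0.0446 with library totals alone, when ILF2 no longer passed (adjusted p = 0.114). NPR1 did not pass without shRNF11 replicate 2 (0.0507) or 3 (0.0636). FLG and TCHH, genes of S100-fused skin proteins in the same cluster, had 6 and 1 reads in all.

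Reported binding partners of the scaffold proteins included higher and lower genes. Among the 13 tested, 2 passed as higher and 2 as lower, 30.8% against 32.1% of all tested genes. The median log2 difference of the 13 was 0.0549. ARPC3, a subunit of the actin-nucleating Arp2/3 complex, rose from 102.5 CPM to 119.4 CPM (log2 0.22, SE 0.0376, edgeR adjusted p = 6.18e-06). CACYBP, the calcyclin-binding protein that pairs with S100A6, rose while S100A6 was lower (log2 0.12, adjusted p = 0.00259), but did not pass with library totals alone (adjusted p = 0.177). PLCG1, a phospholipase C reported to bind AHNAK, fell by 0.11 on the log2 scale (adjusted p = 0.0254). PLA2G4A, the cytosolic phospholipase A2 that annexins can inhibit, fell by 0.30 (adjusted p = 0.0264). Without shControl replicate 1 both calls were lost and 2 partners remained past the threshold. PLCG1 also missed it without shControl replicate 2 (0.0640), shRNF11 replicate 1 (0.0749) or 2 (0.122), and PLA2G4A without shControl replicate 3 (0.0514), shRNF11 replicate 1 (0.100) or 3 (0.0706). With library totals alone 1 partner was higher and 4 were lower.

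HLTF, a chromatin remodeller that binds the tetramer in neurons, had 108.5 CPM in shControl and 105.0 CPM in shRNF11 and did not pass. CTSB, a protease that binds the tetramer at the surface, did not pass either, at 144.5 and 139.9 CPM. Calcium channel beta subunits, which bind AHNAK in excitable cells, were low: CACNB1 had 6.25 and 7.44 CPM, CACNB3 14.3 and 14.8 CPM, and CACNB2 and CACNB4 were not tested.

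The listed receptors ranged from almost no reads to many. FPR1 and FPR3 of the formyl peptide family, which annexin A1 engages, had 1 read each, and AGER, the receptor for several S100 proteins, had 335 reads in all. Of 5 tested genes on the list 0 were higher and 2 were lower, 40% in all. Of all tested genes 32.1% passed, 14.7% as lower. The median log2 difference of the 5 was -0.0676. DESeq2 called 0 higher and 1 lower, and at an unadjusted p under 0.05 the counts were 1 higher and 2 lower. BSG, which binds S100A9, was well expressed, at 630.3 ± 10.3 CPM in shControl and 601.5 ± 24.4 CPM in shRNF11. It fell by 0.07 on the log2 scale (edgeR adjusted p = 0.0426), its groups overlapped, and DESeq2 did not call it (adjusted p = 0.0623). CD68, a lysosomal glycoprotein and macrophage marker for which a link to annexin or S100 ligands is uncertain, fell by 0.18 (adjusted p = 0.00857). Both calls depended on single libraries: without shControl replicate 1 the count was 0, and it was 1 without shControl replicate 2 or without any single shRNF11 replicate.

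Membrane repair genes, the cellular setting in which the scaffold is best known, were near the background in number. Of 27 tested 8 were higher, 1 was lower and 18 did not pass, 33.3% in all against 32.1% of all tested genes. Among the 20% of tested genes with the most reads, where CAV1, CAVIN1 and EHD2 lay, 55.6% passed. The median log2 difference of the 27 was 0.0255. CAV1, which builds caveolae, had 6033, 5837 and 5761 reads in shControl and 8159, 8261 and 8328 in shRNF11. It rose by 1.44-fold (log2 0.52, SE 0.0323, edgeR adjusted p = 7.81e-19), and no shRNF11 library overlapped the shControl libraries. CAVIN1, its coat protein, rose by 1.11-fold (log2 0.15, adjusted p = 1.19e-06), and EHD2, an ATPase at the neck of caveolae, by 1.14-fold (log2 0.19, adjusted p = 0.000145). Their relatives CAV2 (log2 0.07, edgeR adjusted p = 0.242), CAVIN3 (0.14, 0.130) and CAVIN2 (0.82, 0.259, 93 reads in all) did not pass.

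The calpain subunit genes CAPN2 and CAPNS1, of proteases that cut the cortex at wounds, rose with log2 differences of 0.20 and 0.14 (edgeR adjusted p = 4.16e-09 and 0.000577). CAPN1 did not pass (log2 -0.02, adjusted p = 0.764). VPS4A, an ATPase of the ESCRT machinery that sheds damaged membrane, was the 1 that fell, by 0.20 (adjusted p = 5.91e-05). MYOF, a ferlin, was higher by 0.09, while DYSF, its muscle relative, had 83 reads in all and did not pass. With library totals alone 4 repair genes were higher and 4 lower, the median was -0.0388, and CAPNS1 did not pass (adjusted p = 0.0632).

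Among genes that tie the membrane to the cortex, 8 of 15 tested were higher and 2 lower, 66.7% against 32.1% of all tested genes. The share was 55.6% among the 20% of tested genes with the most reads, where MSN, FLNA, SPTAN1 and NF2 lay. The median log2 difference of the 15 was 0.117, and with library totals alone 4 were higher and 2 lower. MSN, or moesin, rose by 1.15-fold (log2 0.21, edgeR adjusted p = 3.31e-10). FLNA, an actin crosslinker gene, rose with a log2 difference of 0.15 (adjusted p = 2.15e-07), and the spectrin gene SPTAN1 also by 0.15 (adjusted p = 5.81e-06). NF2, or merlin, was higher by 0.16 (adjusted p = 0.00189), though not with library totals alone (0.0652). EPB41, a membrane skeleton gene named after its values were seen, fell by 0.18 (adjusted p = 0.00563). EZR and RDX, the relatives of moesin, did not pass, at 425.4 and 438.0 CPM and at 174.2 and 176.0 CPM.

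Other calcium-dependent or phospholipid-handling proteins gave 2 of 14 higher and 2 lower, 28.6% against 32.1% of all tested genes. The median log2 difference of the 14 was -0.0236. The copine genes CPNE1 (log2 0.42, edgeR adjusted p = 2.56e-09) and CPNE7 (0.22, adjusted p = 0.00128), calcium-dependent lipid binders without an annexin core, were higher. ATP11A, a flippase that keeps phosphatidylserine inside, fell by 0.33 (adjusted p = 4.33e-10), and ESYT2, a tether between endoplasmic reticulum and plasma membrane, by 0.11 (adjusted p = 0.00676). ESYT2 missed the threshold without shControl replicate 2 (0.0565) or shRNF11 replicate 2 (0.0665). ANO6, a scramblase that exposes phosphatidylserine, did not pass, at 114.9 CPM in shControl and 110.8 CPM in shRNF11.

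**Figure D4:**
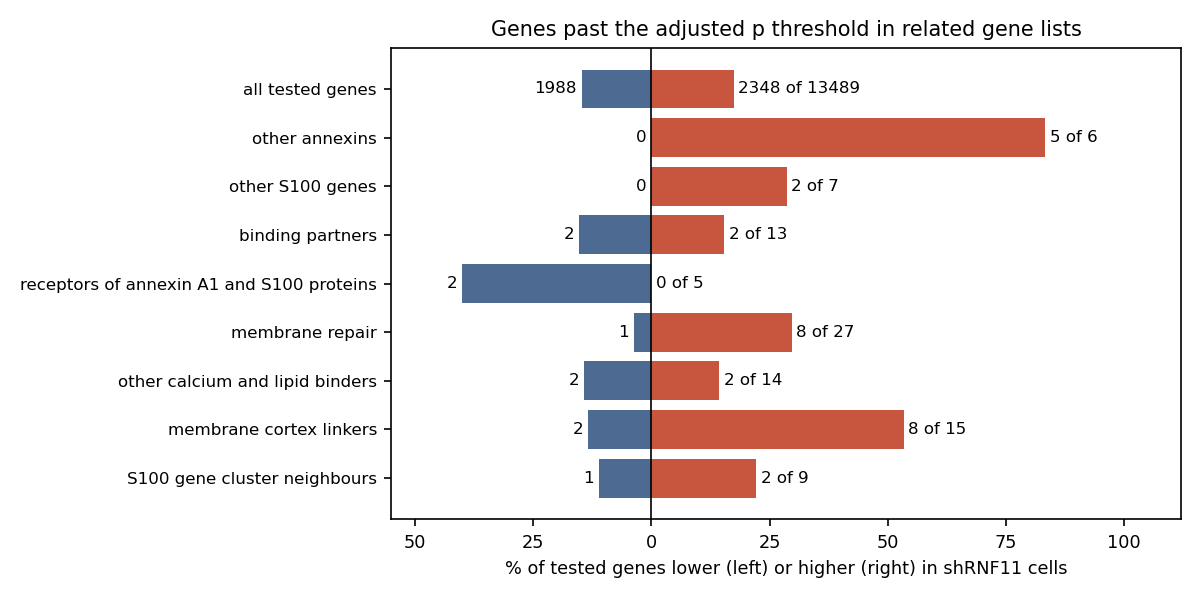
Share of tested genes past an adjusted p of 0.05 that were higher (red, right) or lower (blue, left) in shRNF11 cells, in all tested genes and in 8 lists of related genes, with counts beside the bars. The bar for other annexins is 5 of 6, and that for membrane repair is 8 of 27.

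Markers of simple epithelium included 3 higher keratin genes. Of 7 markers 5 were listed, without KRT19 and EPCAM, and 4 were tested. KRT8 (log2 0.62), KRT18 (0.26) and KRT7 (0.19) were higher, and SOX9 (-0.89) did not pass. These keratin genes lay among the 20% of tested genes with the most reads, where 42.7% were higher, against 17.4% of all tested genes. The summed level of the list was 3105 to 3235 CPM in shControl and 3773 to 3900 CPM in shRNF11. SOX9 and CDH1 were low in both groups, at 0.526 and 0.147 CPM in shControl and 0.282 and 0.106 CPM in shRNF11. Stellate cell and fibroblast markers had 2 of 6 tested higher, VIM and COL1A2, and ACTA2 lower. Of all tested genes 17.4% were higher and 14.7% lower. The summed levels of these markers were 1279 to 1311 CPM in shControl and 1492 to 1519 CPM in shRNF11. VIM made up most of these sums, with means of 1241 CPM in shControl and 1456 CPM in shRNF11. COL1A1, next in level, had 29.9 and 28.1 CPM and did not pass. COL1A2 overlapped between the groups, with 156, 16 and 19 reads in shControl and 16, 207 and 279 in shRNF11, so 1 library of each group went against its call. The part of these epithelial and fibroblast markers in the levels of the members was not tested. Of 7 macrophage and leukocyte markers 3 were listed, without PTPRC, LYZ, CD163 and TYROBP, and these 3 summed to at most 2.33 CPM in any library. CD68, counted on the receptor list instead, had 49.2 CPM in shControl and 43.5 CPM in shRNF11. Endothelial markers, 5 of 6 listed, summed to at most 3.76 CPM in any library.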

How the data were processed

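Per the labels' protocols, TRIzol was used for total RNA and the VAHTS Universal V10 kit for library construction. The submitters' processing notes name fastp, HISAT2 and HTSeq and give no version or role. The sources used here state no genome build, annotation or strand setting. What the authors deposited is a table of unnormalized read counts by gene, with a column for each of the 6 libraries and 0 rows without a gene name.

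In edgeR 4.0.16 (R 4.3.3), filterByExpr with its default minimum count of 10 left 13489 genes. Counts were scaled with TMM factors, and the groups were compared by the quasi-likelihood F-test with group as sole term. P-values are 2-sided, with Benjamini-Hochberg adjustment across those 13489 genes and a threshold of 0.05. CPM is reads per 1000000 of the TMM-scaled total, given as mean ± SD (n = 3). The SE is the absolute log2 difference divided by the square root of F, and its median over tested genes was 0.0711. Log2 CPM for components and likeness used a pseudocount of 0.5. No pair of libraries agreed within sampling noise (chi-square per gene at least 3.79). The fit was checked on simulated data.

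Members and lists were chosen with earlier results of these data known. Named genes are the members, RNF11, up to 6 called genes with the smallest p per list, low or near-identical list members, and the 5 genes nearest AHNAK. Outside this rule, MYOF, CAV2, CAVIN2, CAVIN3, CAPN1, EPB41, HLTF, CTSB, CACNB1, CACNB3, EZR, RDX, ANO6, S100P, S100A13, S100A2 and the markers were named after their values were seen. Some genes of these lists are counted but not reported here by name. No set test was run. Alternatives were RLE factors (as in DESeq2), library totals alone, no filter, DESeq2 1.42.0, a replicate block and leaving out each library.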

Additional observations from a re-analysis of the deposited data

How the results depend on the processing

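Of all tested genes 4336 changed, and other settings gave 3478 to 4590. Scaling bore most on direction: 54.2% of changed genes were higher with TMM factors and 29.1% (1335 higher, 3255 lower) with library totals alone, which moved the median log2 difference of all tested genes from -0.00793 to -0.0722. Of the 10 members, 8 passed under every setting except library totals alone, where 7 did (ANXA3 log2 0.0647, adjusted p = 0.161). No member past the threshold changed sign in the 11 alternatives. As the members were chosen on this contrast, these counts describe only how their values depend on the setting. The range was 0.707 to 0.805 for AHNAK, 0.249 to 0.324 for ANXA2, 0.352 to 0.443 for S100A10 and -0.186 to -0.0994 for S100A6. With library totals alone 6 membrane cortex genes changed instead of 10. For the receptor list 1 changed instead of 2 without a filter and in DESeq2, and 0 to 2 when single libraries were left out. Of the binding partners 2 to 3 changed when single libraries were left out. Mean TMM factors were 1.02 in shControl and 0.978 in shRNF11, so using library totals alone lowers the log2 differences. Why the factors differ was not tested, nor was the cause of the other shifts. Same-numbered libraries did not deviate together (correlations -0.0291 to -0.00808). Whether they were prepared together cannot be told from this. A replicate block gave 4399 changed genes, the same 7 higher and 1 lower counts for the members, and 5 other annexins. Of 418 values of 38 further named genes under these settings, 385 kept their side of the threshold, 33 lost it and 0 changed sign. Depth limits the genes under about 100 reads in all, such as ANXA9, ANXA10 and DYSF.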

Other observations

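The spread between replicates differed among the members. ANXA1, ANXA2 and ANXA5 varied by 0.493% to 0.937% of the mean in shControl, and ANXA4, the member with the fewest reads, by 11.6%. In shRNF11 libraries the largest coefficient of variation was 7.82% (AHNAK2), followed by S100A6 at 4.53%. Replicate 2 of shRNF11 had the lowest AHNAK (1334 CPM, against 1409.7 and 1439 CPM) and the highest S100A6 (277.3 CPM, against 255.8 and 257.6 CPM) of its group.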
